A study of Homo sapiens with 9 samples.

Results

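HepG2 cells given oleic acid for 6 hours were compared with control cells over all measured genes. HepG2 is an established human line derived from a hepatocellular carcinoma, and each sample is bulk RNA. The comparison used 6 of the 9 samples in the series, chosen by their titles, with 3 samples in each group. The control group (WT) was kept in RPMI medium. The oleic acid group (OA) was kept for 6 hours in DMEM to which oleic acid (25 µM), dissolved with 11% bovine serum albumin in PBS, was added. Another group (DNL), which spent 1 week in DMEM containing insulin at 10 µg/ml together with the liver X receptor agonist T0901317 at 10 µM, entered the shared estimate of the spread and is quoted beside a few genes. All media held 10% serum and 1% antibiotics. No sample received the albumin carrier alone or DMEM alone, so oleic acid, its carrier and the change of medium cannot be told apart in any difference given here. Whether replicates came from different cultures is not in the labels, and each p-value therefore reflects only how these libraries varied, which may be technical variation.

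Fatty acids that enter a hepatocyte are activated to acyl-CoA and are either oxidised in mitochondria or esterified to triacylglycerol, which is stored in lipid droplets coated by perilipins or exported on apolipoprotein B particles. Fatty acids are also ligands of the PPAR nuclear receptors, and membrane lipids and cholesterol in the endoplasmic reticulum (ER) are sensed by the SREBP and unfolded protein response pathways. Hepatocytes carry a heavy secretory load, and the genes for plasma proteins, bile acid synthesis and gluconeogenesis depend on a set of transcription factors that includes HNF4A.

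Total estimated counts per library were 7836520 to 28636903 in OA and 26425694 to 43043347 in WT, so the OA group was the shallower. Levels are given as CPM, counts scaled to a common library size and normalised by the trimmed mean of M values. Correlations of log levels were 0.965 to 0.981 within OA, 0.988 to 0.990 within WT and 0.915 to 0.942 between OA and WT libraries. The hepatocyte and hepatoma markers ALB, AFP, APOA1, TTR, SERPINA1, HNF4A and GPC3 were present in both groups. The 3 OA libraries differed from one another in one set of transcripts. Of 102 genes whose levels were uneven within OA (the highest CPM plus 1 over 4 times the lowest plus 1), 74 were highest in OA replicate 3, and all 74 were lowest in OA replicate 1. Their sum was 0.0194%, 0.0645% and 0.331% of scaled counts in OA replicates 1, 2 and 3, against 0.0253% to 0.0284% in WT. Many are matrix genes of mesenchymal cells. ELN (elastin) measured 22.4, 91.0 and 587 CPM in OA replicates 1, 2 and 3 and 0.184, 0.0677 and 0.1097 CPM in WT, and COL1A1 (type I collagen) measured 19.3, 85.0 and 537 and 0.990, 0.948 and 0.622 CPM. COL1A2 and VIM had no counts in WT and reached 259.6 and 66.7 CPM in OA replicate 3. Of the 74 genes, 40 were detected in OA replicate 1, averaged under 1 CPM in WT and reached 5 CPM or more in OA replicate 3. Their median ratio of replicate 3 to replicate 1 was 21.5. These genes had already been picked as uneven and highest in replicate 3, so a large ratio follows from the choice. The summed level of 11 fibroblast and stellate cell markers was 97.0, 228 and 1070 CPM in OA and 74.0 to 80.3 CPM in WT. Of these markers, 3 of 10 tested were higher in OA and 2 lower. The 3 higher markers, COL1A1, COL3A1 and PDGFRA, were all uneven, so 0 remained once the uneven genes were removed. Without OA replicate 1 or with DESeq2, 5 were higher. The count lower was 1 when OA replicate 1 or 2 or WT replicate 2 or 3 was omitted, and also with library totals, no filter, the replicate block, DESeq2 or limma-voom. Macrophage and leukocyte markers summed to 1133 to 1179 CPM in OA and 1010 to 1019 CPM in WT, mostly LYZ, with CD163, TYROBP and CD3E at 0 in all 6 libraries. Endothelial markers summed to 3.79 to 8.08 CPM in OA and 1.80 to 2.52 CPM in WT, with STAB2 at 0. Adipocyte markers summed to 43.9 to 48.2 CPM in OA and 62.5 to 64.9 CPM in WT, with FABP4, LIPE and LPL at 0. The part of these transcripts in other differences was not tested, and genes uneven in this way are left out of the examples below. In bulk samples, fewer cells of a type and less RNA per cell cannot be told apart.

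**Figure D1:**
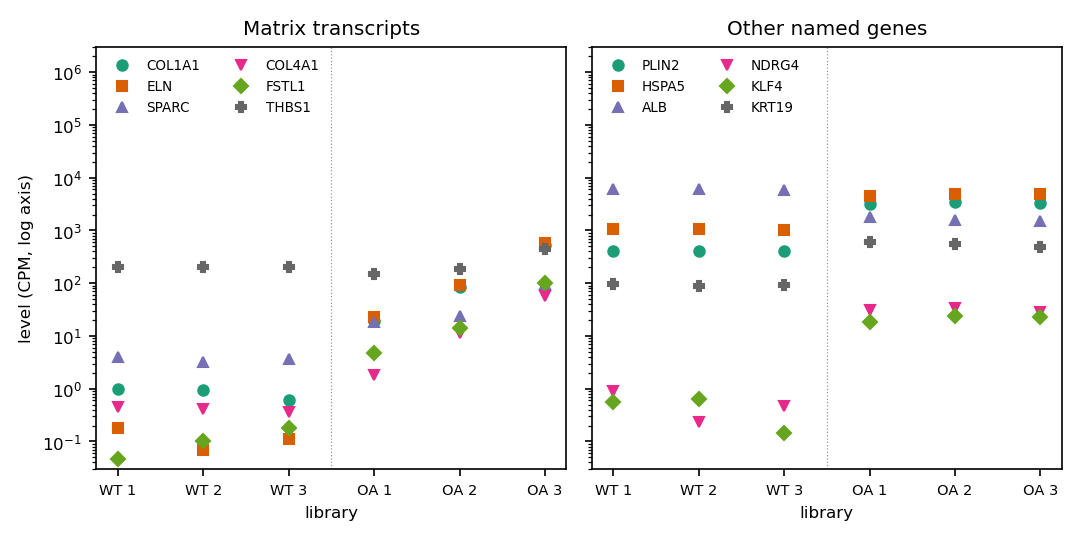
Levels (CPM, log axis) of 6 matrix transcripts (left) and 6 other named genes (right) in each of the 3 WT and 3 OA libraries, each point being 1 library. COL1A1 and ELN climb from about 20 CPM in OA 1 to over 500 CPM in OA 3, while PLIN2, HSPA5, ALB, NDRG4, KLF4 and KRT19 hold similar levels in all 3 OA libraries.

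Of 19317 genes in the table, 13636 passed the filter on low counts and were tested with edgeR's quasi-likelihood test. At a Benjamini-Hochberg adjusted p under 0.05, which is the threshold for every rise or fall reported here, 4139 genes (30.4%) were higher and 4049 (29.7%) lower in OA. Those changed at least 2-fold numbered 1211 (8.88%) higher and 1084 (7.95%) lower, and the median log2 fold change over all tested genes was -0.03. These shares are the background against which the count for each gene group should be read. The share called differed with level, from 23.4% of genes under 1 CPM to 78.1% of genes at 100 to 1000 CPM. The most abundant transcript was APOB in WT and MT-CO1 in OA.

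**Figure D2:**
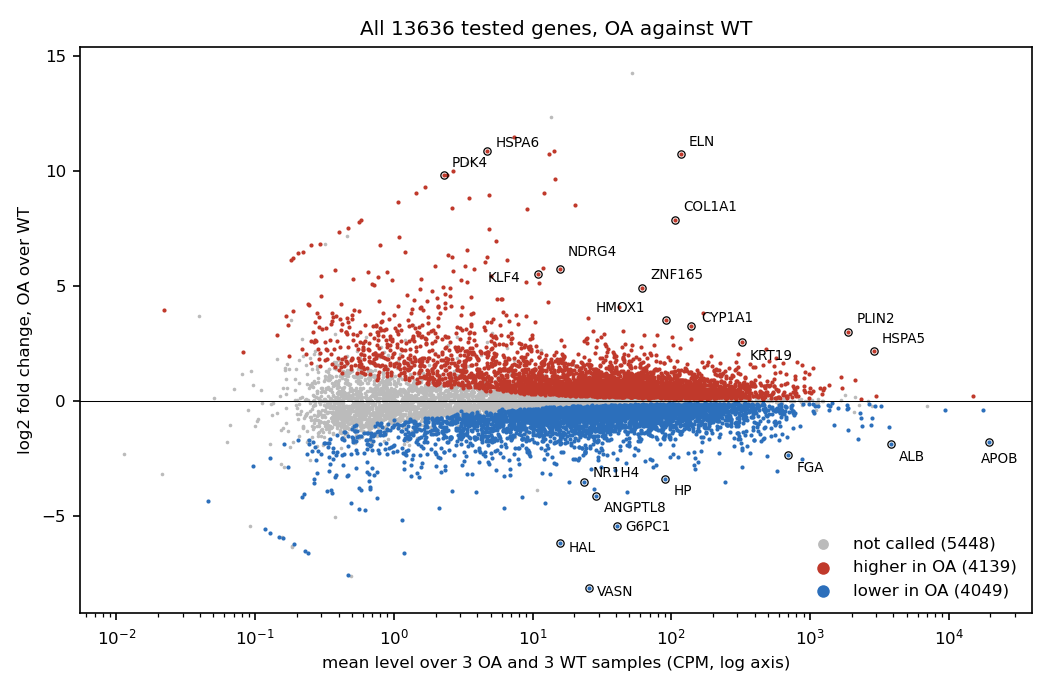
Log2 fold change of OA over WT against mean level (CPM, log axis) for all 13636 tested genes, red where higher in OA, blue where lower and grey where not called, with named genes circled. Fitted changes of genes with few or no counts in WT depend on the prior count. ELN and COL1A1 are among the uneven transcripts, and VASN, HAL and G6PC1 lie lowest of the named genes.

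Of the proteins that coat or build lipid droplets, the perilipins PLIN2 and PLIN3 rose and PLIN5 fell. PLIN2 (chromosome 9, 19108375 to 19149290), the ubiquitous droplet coat protein of hepatocytes, measured 416, 411 and 409 CPM in WT and 3216, 3433 and 3378 CPM in OA. The groups were far apart, and no gene had a smaller adjusted p (log2 fold change 3.02, SE 0.0398, adjusted p = 7.88e-14). PLIN3, which moves from the cytosol to new droplets, measured 90.2, 93.5 and 94.1 CPM in WT and 259, 280.0 and 276 CPM in OA, a 2.94-fold rise (adjusted p = 2.16e-11). PLIN5, which links droplets to mitochondria, was 2.76, 3.15 and 4.43 CPM in WT and 0.948, 1.19 and 1.19 CPM in OA, and fell by 1.62 on the log2 scale. In the whole list of lipid droplet proteins, 18 of 22 genes were tested, 7 rose and 5 fell, with a median log2 fold change of -0.16. CIDEB, which enlarges droplets and loads lipoproteins in hepatocytes, rose 1.67-fold, and AUP1, a droplet protein of ER-associated degradation, 1.58-fold. HILPDA, an inhibitor of triacylglycerol lipase, rose from 4.30 ± 0.362 to 7.51 ± 0.465 CPM (SD, n = 3). FITM2, which acts in droplet budding from the ER, fell by 0.51 and LDAH, a droplet hydrolase, by 0.38 on the log2 scale. CIDEC rose 1.30-fold, but was no longer called without OA replicate 2 (adjusted p = 0.0574) or in thinned libraries (adjusted p = 0.0898). No counts of CIDEA were found, and G0S2, an inhibitor of the same lipase, had 28 counts over WT and 0 over OA, too few to be tested.

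Proteins that take up, bind and activate fatty acids moved both ways. CD36, a fatty acid translocase, overlapped between groups at 7.87, 7.01 and 7.28 CPM in WT and 9.32, 7.68 and 10.6 CPM in OA and was not called (log2 fold change 0.29, adjusted p = 0.104), although it was called without OA replicate 2 (adjusted p = 0.0322). FABP1, the liver fatty acid binding protein, fell from 45.0, 36.5 and 32.7 CPM in WT to 12.8, 9.39 and 7.72 CPM in OA, without overlap (log2 fold change -1.93, SE 0.224). FABP5, an epidermal member of the family, rose 1.84-fold. Among acyl-CoA synthetases, ACSL1 rose 1.26-fold, while ACSL3, which sits on nascent droplets, fell by 0.97 and ACSL4, which prefers arachidonate, by 1.44 on the log2 scale. Of 18 genes tested of 21 listed, 5 rose and 8 fell (median -0.04).

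Some targets of PPAR alpha, the fatty acid receptor that drives oxidation in liver, rose strongly while most listed targets fell. PDK4, which phosphorylates and slows pyruvate dehydrogenase, had 0 counts over the WT group. Its OA levels were 4.19, 5.37 and 4.16 CPM, and OA was at least 163-fold higher against a floor of 3 counts over the group. ANGPTL4, a secreted inhibitor of lipoprotein lipase, was 1.38, 1.997 and 1.65 CPM in WT and 9.87, 12.6 and 12.6 CPM in OA (log2 fold change 2.81, SE 0.189). CPT1A, the entry step of mitochondrial oxidation, was 172, 177 and 174 CPM in WT and 321, 296 and 306 CPM in OA. All 3 OA values of each gene lay above all 3 WT values, but 65.7% of all tested genes showed no overlap in either direction. CREB3L3, an ER-anchored transcription factor of the liver, rose from 18.8, 17.2 and 18.3 to 84.2, 85.9 and 82.8 CPM (adjusted p = 1.00e-10). The oxidation enzymes EHHADH of the peroxisome and ACADVL of the mitochondrion fell by 1.26 and 0.76 on the log2 scale. FGF21, a fasting hormone, overlapped between groups at 0.806, 0.779 and 0.658 CPM and 0.790, 0.626 and 0.594 CPM (adjusted p = 0.741). Over the list, 8 of 25 tested genes rose and 15 fell, with a median of -0.29. The receptors themselves were lower in OA, PPARA by 0.60, PPARD by 0.98 and PPARG by 0.97 on the log2 scale.

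Enzymes of triacylglycerol synthesis changed in opposite directions between isoforms of one step. GPAM, the mitochondrial acyltransferase of the first step, was 808, 847 and 819.8 CPM in WT and 175, 153 and 147 CPM in OA, a fall of 2.38 on the log2 scale (adjusted p = 6.40e-12). GPAT3, an ER enzyme of the same step, was 62.0, 58.7 and 60.5 CPM in WT and 140.4, 152 and 139.7 CPM in OA, and rose 2.39-fold. The lowest WT value of GPAM was thus above its highest OA value, and the reverse held for GPAT3. AGPAT2, of the next acylation, rose 2.56-fold, and LPIN1, the phosphatidate phosphatase that makes diacylglycerol, rose from 34.3, 35.2 and 34.1 to 90.9, 87.3 and 93.6 CPM. For the last step, DGAT2 fell from 50.4, 49.8 and 48.6 to 16.2, 12.6 and 13.3 CPM, and DGAT1 was not called at 5.64, 6.13 and 7.28 CPM in WT and 4.97, 5.24 and 4.28 CPM in OA. The suppliers of glycerol 3-phosphate also fell, GPD1 by 2.72 and GK by 1.56 on the log2 scale. In the list, 6 of 18 tested genes rose and 10 fell (median -0.37).

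Lipolysis genes showed no common direction, with 6 of 12 higher and 5 lower. PNPLA2, the first triacylglycerol lipase of droplets, measured 128, 114 and 124 CPM in WT and 153, 166 and 155 CPM in OA, and its coactivator ABHD5 rose 1.95-fold. LIPA, the lysosomal acid lipase, rose 1.38-fold, whereas the carboxylesterases CES1 and CES2 fell by 1.50 and 0.65 on the log2 scale. MGLL, the monoacylglycerol lipase, had 0 counts in WT and 62 in OA and was below the filter.

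**Figure D3:**
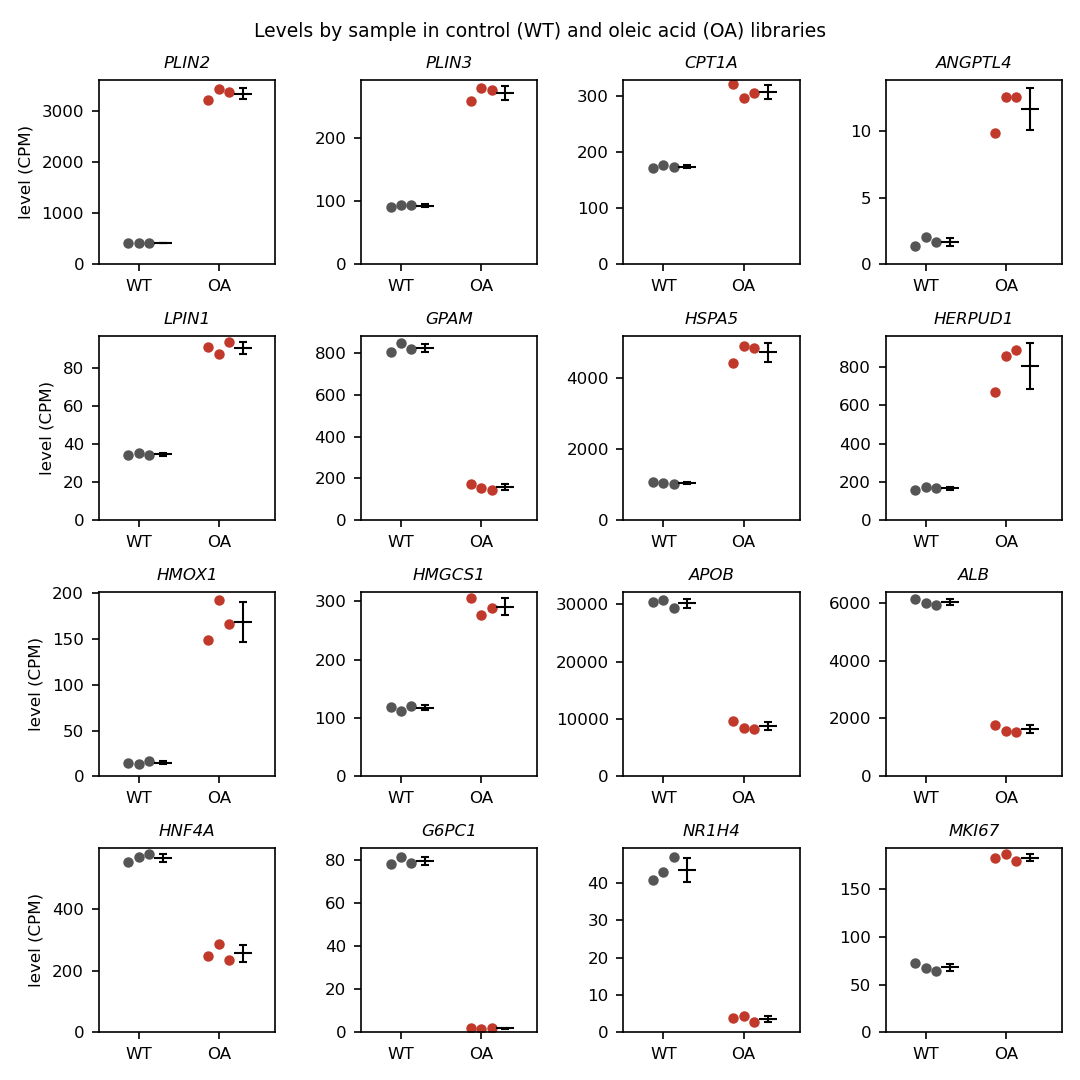
Levels (CPM, linear axis from 0) of 16 genes in each WT and OA sample, with the mean and SD of 3 samples beside the points. In all 16 panels the 3 OA points lie wholly above or wholly below the 3 WT points. The 16 genes were chosen for display with earlier results known, and 65.7% of all 13636 tested genes likewise showed no overlap between the groups.

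Cholesterol synthesis genes rose almost throughout. Among 26 listed genes for making or importing cholesterol, 22 rose, 12 of them at least 2-fold, and 2 fell, with a median of 0.96. HMGCS1, an early synthase of the pathway, was 119, 113 and 121 CPM in WT and 306, 277 and 289 CPM in OA (log2 fold change 1.31, SE 0.0463). All 3 OA values of HMGCS1 lay above all 3 WT values. DHCR7, of a late step, was 119, 118 and 124 CPM in WT and 330.3, 301 and 288 CPM in OA, and rose 2.54-fold. SC5D, another late enzyme, rose 1.89-fold. PMVK, a kinase of the mevalonate pathway, fell by 0.85 on the log2 scale. INSIG1, which retains SREBP in the ER, was low, at 0.184, 0.203 and 0.219 CPM in WT and 0.711, 1.15 and 2.14 CPM in OA.

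In fatty acid synthesis, 10 of 20 genes rose and 5 fell (median 0.14). FADS2, a desaturase of polyunsaturated fatty acids, rose 2.61-fold, ELOVL1, an elongase of very long chains, 2.40-fold and ELOVL5 1.59-fold. FASN measured 1029, 1062 and 1067 CPM in WT and 1619.8, 1381 and 1356 CPM in OA, and SCD, the desaturase that makes oleate, 1008, 1054 and 994 CPM in WT and 1650.2, 1387 and 1431 CPM in OA. Both rises were under 2-fold and the groups did not overlap. SREBF1, the lipogenic factor, fell by 0.47 on the log2 scale, ACACB, the mitochondrial acetyl-CoA carboxylase, by 0.81, and MLXIPL by 2.68. LXR genes moved both ways, 6 of 14 higher and 7 lower (median -0.77). The list holds targets and also the receptor genes NR1H3 and NR1H2. ABCA1, the cholesterol exporter, was 467, 481 and 479 CPM in WT and 172, 143 and 138 CPM in OA. ABCG8, a sterol exporter to bile, fell by 1.12 on the log2 scale, while MYLIP, a ubiquitin ligase, and LPCAT3, which remodels phospholipids, rose 1.65-fold and 1.30-fold.

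Most ER chaperones rose. Of 25 genes in the list of ER chaperones and folding enzymes, 17 rose and 5 fell, 10 and 0 of them at least 2-fold (median log2 fold change 0.67). The list also holds CDK2AP2, which is neither a chaperone nor a folding enzyme. HSPA5 (chromosome 9, 125234853 to 125241330), the lumenal HSP70 known as BiP, measured 1072, 1045 and 1031 CPM in WT and 4422, 4894 and 4852 CPM in OA (log2 fold change 2.17, SE 0.0446, adjusted p = 2.26e-12). DNAJB9, a cochaperone of BiP, measured 88.3, 87.7 and 84.2 CPM in WT and 270.3, 290.0 and 277 CPM in OA. DNAJC3, another such cochaperone, rose 2.79-fold, and CALR, a lectin chaperone for glycoproteins, 2.94-fold. In each of these 4 genes the lowest OA value was over 2 times the highest WT value. No fall reached 2-fold, with ERP29 lower by 0.64, CANX, the membrane-bound partner of CALR, by 0.41, ERO1A, an oxidase induced by hypoxia, by 0.32 and DNAJC10 by 0.27 on the log2 scale.

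Some promoters of this group carry a known sequence, shown here because most of its members rose. The ER stress element has the letters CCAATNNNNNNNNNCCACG and was searched on both strands from 250 bases before to 50 after the start of each gene in the RefSeq table (GRCh38.p14). It was found in 6 of the 24 promoters of the ER chaperone list in that table (25%) and in 22 of 27305 promoters in all (0.0806%). It was also found in XBP1, and in 0 of 15 promoters of ER-associated degradation genes and 0 of 41 of translocon and coat genes, where its absence says only that these letters are not in the window. The 6 genes were ERO1B, CANX, HSPA5, HSP90B1, CALR and CRELD2. CANX fell and the other 5 rose. The 200 bases before the start of HSPA5 (minus strand, chr9:125241344-125241543) and HSP90B1 (plus strand, chr12:103930210-103930409) follow, 5′ to 3′ on the strand of the gene, with each match in capitals.
HSPA5: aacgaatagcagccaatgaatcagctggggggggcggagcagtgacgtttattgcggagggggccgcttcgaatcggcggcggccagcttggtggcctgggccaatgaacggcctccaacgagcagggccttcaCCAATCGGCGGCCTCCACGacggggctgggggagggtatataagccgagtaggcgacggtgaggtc
HSP90B1: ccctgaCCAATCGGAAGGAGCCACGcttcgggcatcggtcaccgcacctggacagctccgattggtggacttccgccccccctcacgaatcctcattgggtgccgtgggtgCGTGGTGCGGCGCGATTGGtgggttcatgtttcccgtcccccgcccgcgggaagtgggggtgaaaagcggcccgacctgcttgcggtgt
The second match in HSP90B1 lies on the opposite strand. HSP90B1, the lumenal HSP90, named here for its promoter, measured 736, 693 and 693 CPM in WT and 1012, 1112 and 1163 CPM in OA. The matches of the other genes, each written along the strand that holds it, differ in the bases between the fixed ends.
CALR: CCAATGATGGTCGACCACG
CANX: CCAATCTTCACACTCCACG
CRELD2: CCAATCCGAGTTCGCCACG
ERO1B: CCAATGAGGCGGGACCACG
XBP1: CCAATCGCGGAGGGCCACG
The shorter CCAAT box, with which every such match overlaps, was in 83.3% of promoters of the ER chaperone list and 35.7% of all promoters. A match is a description of the sequence and not evidence that a factor bound there.

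In other steps of the secretory pathway more genes rose than fell. For ER-associated degradation, 13 of 19 genes rose and 3 fell (median 0.48). VCP, the ATPase that extracts proteins from the membrane, was 178, 174 and 163 CPM in WT and 357, 382 and 395 CPM in OA. SEL1L, EDEM1 and DERL1, parts of the retrotranslocation machinery, rose 1.85-fold, 1.77-fold and 1.66-fold. HERPUD1, a membrane protein of the same complex shown in the plot of levels by sample and chosen after its values were seen, went from 166 ± 9.71 to 805 ± 118 CPM (SD, n = 3). Of 46 genes of the translocon, signal peptidase and vesicle coats, 27 rose and 13 fell, but 1 rose 2-fold and 0 fell 2-fold (median 0.23). SEC24D, a cargo adaptor of COPII coats, rose 2.15-fold and SEC61A1, the pore of the translocon, 1.703-fold. SAR1B, the COPII GTPase used by large lipoproteins, fell by 0.65 and TMED10 by 0.58 on the log2 scale. Among 26 N-glycosylation genes, 14 rose and 4 fell (median 0.17). GMPPB, which makes GDP-mannose, and DAD1, a subunit of the oligosaccharyltransferase, rose 2.24-fold and 1.82-fold, and GANAB, glucosidase II, fell by 0.59 on the log2 scale.

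The regulators of the unfolded protein response moved both ways. XBP1 and ATF4, the transcription factors of the IRE1 and PERK arms, were not called. XBP1 overlapped at 282, 277 and 281 CPM in WT and 246, 281 and 269 CPM in OA (adjusted p = 0.186), and ATF4 at 657, 624 and 614 CPM and 606, 722 and 703 CPM (adjusted p = 0.144). Gene counts do not show splicing of XBP1 or translation of ATF4, through which both are controlled. XBP1 was called lower without OA replicate 2 (adjusted p = 0.0493), and ATF4 higher without OA replicate 1 (0.00147) and with library totals (0.0128). ATF3, a stress-induced repressor, rose from 29.6, 25.3 and 24.5 to 93.9, 123 and 122 CPM. DDIT3, the factor CHOP, was 44.3, 41.9 and 43.2 CPM in WT and 55.1, 77.9 and 80.2 CPM in OA, and PPP1R15A, the phosphatase subunit that reverses eIF2 phosphorylation, rose 2.57-fold. For both, OA replicate 1 was the lowest of the OA samples and still above every WT sample. ATF6, the sensor of the remaining arm, fell by 0.68 and MBTPS2, the protease that releases ATF6 and SREBP, by 1.08 on the log2 scale. In all, 8 of 18 regulators rose and 6 fell (median 0.13).

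Targets of ATF4, many of them in amino acid metabolism, mostly fell. Of 28 genes, 17 fell, 8 of them at least 2-fold, and 4 rose (median -0.36). PSAT1, of serine synthesis, was 786, 782 and 773 CPM in WT and 268, 281 and 268 CPM in OA. ASNS, asparagine synthetase, was 395, 374 and 381 CPM in WT and 197, 204 and 214 CPM in OA. PCK2, the mitochondrial PEP carboxykinase, fell from 366, 361 and 370.0 to 75.2, 77.4 and 75.6 CPM, and SHMT2, of mitochondrial folate metabolism, by 1.10 on the log2 scale. SLC3A2, the heavy chain of amino acid exchangers, rose against this direction, from 257, 230.1 and 247 to 841, 922 and 894 CPM. GDF15, a stress hormone, rose 1.30-fold. Of 20 cytosolic aminoacyl-tRNA synthetases, 11 fell and 3 rose (median -0.28), with LARS1 lower by 1.40, YARS1 by 1.18 and FARSB by 1.10 on the log2 scale.

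Most NRF2 targets, which act against oxidative stress, rose. Of 27 tested genes in the list of NRF2 targets, 16 rose, 9 of them at least 2-fold, and 4 fell (median 0.38). The list also holds KEAP1 and the gene of NRF2 itself. HMOX1, haem oxygenase, was 14.99, 12.9 and 16.7 CPM in WT and 149, 192 and 167 CPM in OA (log2 fold change 3.51, SE 0.116, adjusted p = 5.37e-10). SQSTM1, the autophagy receptor p62, was 318, 302 and 303 CPM in WT and 969.8, 1001 and 956 CPM in OA. GCLC, of glutathione synthesis, was 431, 408 and 408 CPM in WT and 868, 961 and 962 CPM in OA, and TXNRD1, thioredoxin reductase, rose 2.22-fold. NQO1, a quinone reductase, rose 1.22-fold. NFE2L2, which encodes NRF2, fell by 0.33 on the log2 scale, and the exporter ABCC3 fell from 89.4, 94.4 and 83.2 to 23.2, 27.2 and 9.62 CPM. The core of the antioxidant element, TGACNCAGC, was in 1 of 20 promoters of these genes and in 1.66% of all promoters. The gene with the match was PIR, which fell by 0.88 on the log2 scale. Lysosome and autophagy genes rose in 22 and fell in 5 of 32 cases (median 0.38). GLA, alpha-galactosidase, rose 3.41-fold and GABARAPL1, an autophagosome protein, 2.36-fold, while CTSD and CTSB, cathepsins, fell by 0.51 and 0.61 on the log2 scale.

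Most heat shock proteins rose too. Among 22 tested genes in the list of cytosolic and mitochondrial heat shock proteins, 18 rose and 2 fell (median 0.49). The list also holds the transcription factors HSF1 and HSF2 and cochaperones such as BAG3 and STIP1. HSPA8, the constitutive HSP70, was 1142, 1081 and 1053 CPM in WT and 2146, 2322 and 2338 CPM in OA, and HSP90AA1, the inducible HSP90, 648, 583 and 581 CPM in WT and 1217, 1207 and 1215 CPM in OA. BAG3, a cochaperone of selective autophagy, rose 3.29-fold. HSPB8, its small heat shock partner, was 0.506, 0.135 and 0.805 CPM in WT and 15.1, 18.8 and 18.2 CPM in OA. CRYAB, another small heat shock protein, was 0.0691, 0.102 and 0.146 CPM in WT and 3.24, 3.79 and 12.4 CPM in OA. OA replicate 3 was the highest for CRYAB, and its log2 fold change of 5.89 was 5.06 without that library. The mitochondrial HSPA9 was the member that fell furthest, by 0.61 on the log2 scale, and HSPD1 was not called (log2 fold change 0.07). HSPA6, a strictly inducible HSP70, showed the largest rise of all genes under the naming rule, from 0 counts over WT to 7.66, 11.2 and 9.26 CPM in OA, at least 335-fold. HSPA1A and HSPA1B, near-identical inducible copies, had 8 and 15 counts over OA and 0 over WT, and their counts are uncertain. The heat shock element (GAANNTTCNNGAA or TTCNNGAANNTTC, the same on both strands) was in 4 of 19 promoters of the list (21.1%), DNAJB6, DNAJA1, CHORDC1 and HSPA8, and in 0.487% of all promoters. HSPA6, outside the list, also holds one. The 100 bases before the start of HSPA6 (plus strand, chr1:161524440-161524539) and HSPA8 (minus strand, chr11:123062137-123062236) are shown for the strictly inducible and the constitutive gene, from RefSeq (GRCh38.p14), with the element in capitals.
HSPA6: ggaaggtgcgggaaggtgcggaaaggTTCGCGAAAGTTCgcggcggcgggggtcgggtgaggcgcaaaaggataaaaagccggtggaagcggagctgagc
HSPA8: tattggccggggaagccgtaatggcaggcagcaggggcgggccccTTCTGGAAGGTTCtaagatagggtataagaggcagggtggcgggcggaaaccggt

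Proteasome subunits moved both ways. Of 32 proteasome subunits, 11 rose and 7 fell (median 0.09). The rises numbered 6 without OA replicate 2 and 7 without WT replicate 3, and the falls 4 without WT replicate 1. PSMD2, a scaffold of the cap, rose from 184, 178 and 177 to 399, 447 and 422 CPM. Of 12 metallothionein and zinc transporter genes, 6 rose and 2 fell, or 1 fell with library totals. MT2A, a metal-binding protein, rose 2.46-fold, while SLC30A10, a manganese exporter, fell from 31.9, 36.8 and 34.9 to 7.66, 5.47 and 4.87 CPM. Reads of the closely similar metallothionein genes may be shared between them, which makes single members uncertain.

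Genes for secreted liver proteins were mostly lower in OA. Of 17 tested plasma carrier proteins, 15 fell, 10 of them at least 2-fold, and 0 rose (median -1.18). ALB (chromosome 4, 73397114 to 73421412), serum albumin, was 6128, 5982 and 5935 CPM in WT and 1787, 1560.3 and 1536 CPM in OA (log2 fold change -1.89, SE 0.0569, adjusted p = 4.21e-11). AHSG, fetuin A, was 2675, 2653 and 2648 CPM in WT and 1079, 1153 and 1104 CPM in OA. AFP, the fetal albumin homologue, was 2094, 1979.7 and 1987 CPM in WT and 1038, 951 and 917 CPM in OA. SERPINC1, antithrombin, fell by 1.57, RBP4, the retinol carrier, by 1.60 and TF, transferrin, by 0.96 on the log2 scale, while TTR was not called (log2 fold change -0.08). For apolipoproteins and lipoprotein assembly, 14 of 17 genes fell and 2 rose (median -1.20). APOB (chromosome 2, 21001429 to 21044073), the backbone of very low density lipoprotein, was 30463, 30827 and 29328 CPM in WT and 9625, 8428 and 8249.5 CPM in OA. MTTP, which loads lipid onto it, was 167, 156 and 159 CPM in WT and 57.7, 46.6 and 47.7 CPM in OA. APOC3, an inhibitor of triglyceride clearance, fell by 2.96 on the log2 scale. APOA4 and PLTP were the members that rose, APOA4 from 2.72, 2.91 and 2.01 to 10.1, 9.46 and 5.58 CPM.

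Most acute phase, complement and coagulation genes also fell. Of 21 tested acute phase and complement genes, of 29 listed, 16 fell, 14 of them at least 2-fold, and 0 rose (median -1.76). C5, a complement factor, was 583, 581 and 546 CPM in WT and 79.3, 76.6 and 79.6 CPM in OA (log2 fold change -2.86, adjusted p = 7.88e-14). ITIH3, a hyaluronan-binding protein, fell by 2.19 and HP, haptoglobin, by 3.38 on the log2 scale, the latter from 173, 156 and 164 to 18.6, 13.9 and 15.8 CPM. Among 19 coagulation and fibrinolysis genes, 14 fell and 2 rose (median -1.33). F7, coagulation factor VII, was 52.8, 52.1 and 50.3 CPM in WT and 5.45, 2.67 and 3.21 CPM in OA. The members that rose, PLAU and PLAUR, are the urokinase protease and its receptor. PLAU was 1.84, 2.13 and 1.57 CPM in WT and 12.4, 11.2 and 13.3 CPM in OA, and PLAUR 4.05, 2.34 and 2.74 CPM and 13.6, 17.0 and 16.6 CPM.

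Bile acid and amino acid genes typical of hepatocytes were mostly lower as well. Of 18 bile acid genes, 16 fell and 0 rose (median -1.22). NR1H4, the bile acid receptor FXR, was 40.8, 42.9 and 47.1 CPM in WT and 3.79, 4.28 and 2.73 CPM in OA. CYP7A1, the rate-limiting enzyme of bile acid synthesis, had 233 counts over WT and 3 over OA, a ratio of counts per scaled total between 13.5 and 194 in a 95% interval for counting error only. AKR1D1, of the same pathway, fell by 2.53 on the log2 scale. Among 18 genes of the urea cycle and amino acid catabolism, 13 fell and 1 rose (median -1.04). The rises numbered 2 without OA replicate 1 or WT replicate 1, and with RLE size factors, library totals or DESeq2. HAL, histidine ammonia-lyase, was 32.9, 28.8 and 31.8 CPM in WT and 0.711, 0.264 and 0.475 CPM in OA, and ASS1, argininosuccinate synthase, fell by 2.13 on the log2 scale. ARG2, the mitochondrial arginase, rose 2.05-fold. Drug-metabolising cytochrome P450 genes moved both ways, with 7 of 18 higher and 4 lower. CYP1A1, a target of the aryl hydrocarbon receptor, was 26.1, 27.6 and 25.7 CPM in WT and 221, 269 and 264 CPM in OA. CYP1B1, another such target, was 0, 0.169 and 0.0366 CPM in WT and 3.95, 4.12 and 7.36 CPM in OA. The log2 fold change of CYP1B1 was 6.25, and 8.01 without WT replicate 2, the WT library with most of its counts, or 5.53 without WT replicate 1. AHRR, the repressor of that receptor, chosen after its values were seen, was 0.760, 0.440 and 1.21 CPM in WT and 8.29, 10.6 and 9.74 CPM in OA. CYP4F3, a hydroxylase of leukotriene B4, fell by 2.01 on the log2 scale.

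Hepatocyte transcription factors were lower in 17 and higher in 2 of 25 cases (median -0.48). HNF4A was 553, 569.7 and 579.8 CPM in WT and 248, 289 and 234 CPM in OA (log2 fold change -1.14, SE 0.0682). PPARGC1A, the coactivator PGC-1 alpha, was 119.5, 127 and 128 CPM in WT and 20.6, 21.5 and 20.4 CPM in OA, and ONECUT1 fell by 2.06 on the log2 scale. CEBPA fell by 0.49, while FOXA1 was not called (log2 fold change 0.00). GATA6 and NR1I2, the xenobiotic receptor PXR, were the members that rose, GATA6 from 3.29, 2.10 and 2.30 to 7.90, 8.80 and 7.72 CPM.

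**Figure D4:**
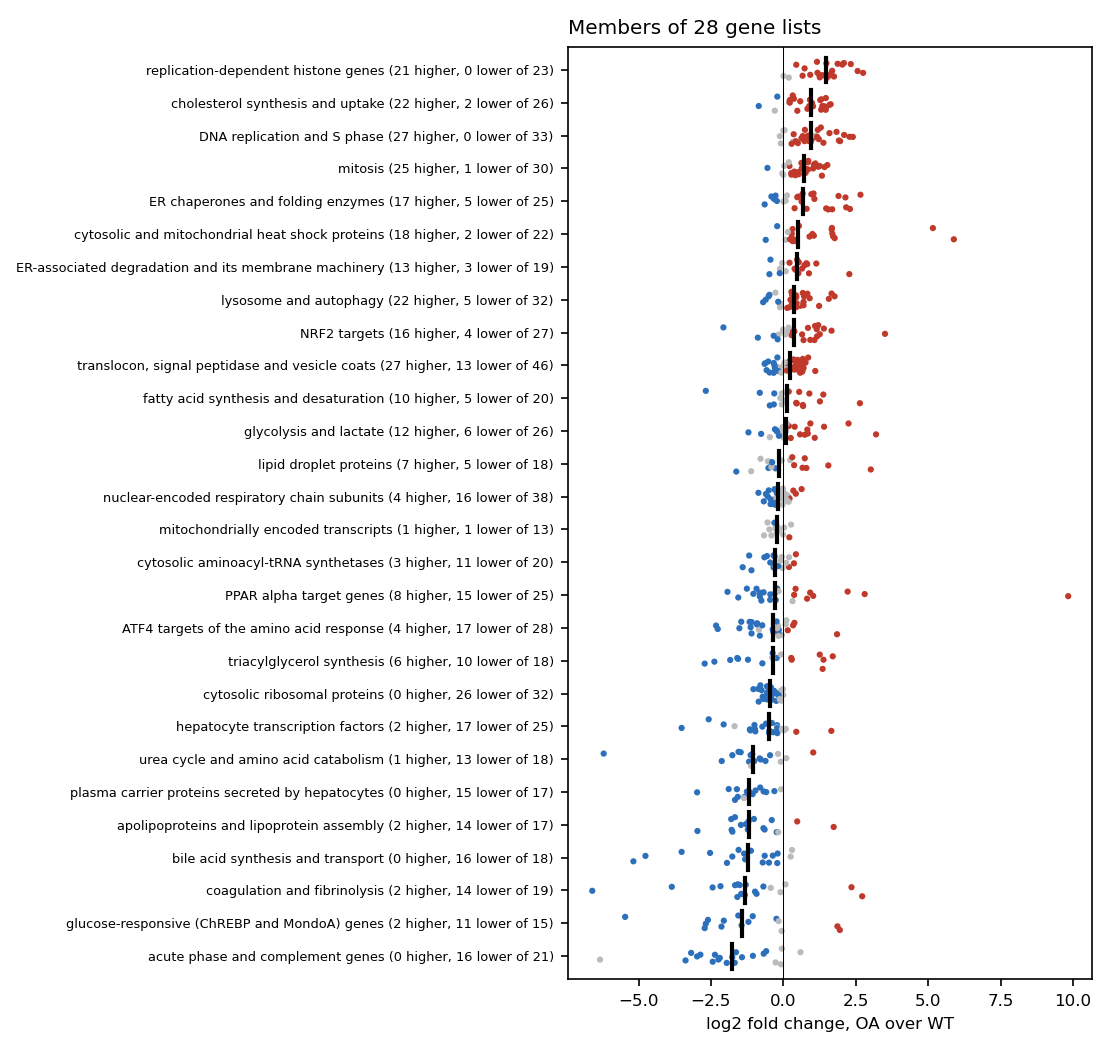
Log2 fold change of OA over WT for the tested members of 28 gene lists, each point being 1 gene (red higher, blue lower, grey not called) and each black bar the list median, sorted by median. Histone, cholesterol, DNA replication, mitosis and ER chaperone lists have the highest medians, and acute phase, glucose-responsive and coagulation lists the lowest. Points for genes with no counts in WT, such as PDK4, depend on the prior count.

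Glucose-responsive genes linked to ChREBP and MondoA fell in 11 and rose in 2 of 15 cases (median -1.44), 10 of the falls being at least 2-fold. The list also holds the genes of these factors themselves, MLXIPL and MLXIP. G6PC1, which releases free glucose from its phosphate, was 77.9, 81.2 and 78.6 CPM in WT and 1.82, 1.75 and 1.90 CPM in OA (log2 fold change -5.46, SE 0.101). MLXIPL, which encodes ChREBP, was 258, 267 and 283 CPM in WT and 38.3, 44.8 and 42.5 CPM in OA. SLC2A2, the hepatic glucose transporter, was 114, 110.3 and 111 CPM in WT and 18.6, 17.4 and 19.95 CPM in OA. ARRDC4 and TXNIP, arrestins that restrain glucose uptake, fell by 2.14 and 1.55 on the log2 scale. ARRDC3, of the same family, rose from 20.4, 19.2 and 18.4 to 68.5, 69.9 and 74.3 CPM. PPP1R3B, which targets a phosphatase to glycogen, was the other rise, and the count of rises was 1 under limma-voom and without OA replicate 1, OA replicate 3, WT replicate 2 or WT replicate 3. The glucose content of the media is not in the labels. In glycolysis, 12 of 26 genes rose and 6 fell (median 0.10). PFKFB3, which makes an activator of glycolysis, rose from 2.62, 4.33 and 3.33 to 12.9, 17.96 and 17.7 CPM, and PKM, the pyruvate kinase of tumour cells, 1.91-fold. PKLR, the liver pyruvate kinase, fell by 1.20 and HK2 by 0.77 on the log2 scale. Genes of a joint list for gluconeogenesis and insulin-repressed genes moved both ways, 4 of 14 higher and 7 lower. IGFBP1, an IGF-binding protein, was 5162, 4955 and 5323 CPM in WT and 2133, 2514 and 2330.1 CPM in OA, while IRS2, the insulin receptor substrate, rose from 0.783, 0.914 and 0.658 to 4.42, 5.14 and 6.06 CPM. PCK1, the cytosolic PEP carboxykinase, was 1.40, 1.66 and 1.24 CPM in WT and 0, 1.22 and 0.594 CPM in OA and was not called (adjusted p = 0.160). Without OA replicate 2 it was called, with a log2 fold change of -2.53 (adjusted p = 0.00842).

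Among immediate early genes and MAP kinase feedback regulators, 14 of 28 rose, 12 of them at least 2-fold, and 12 fell (median 0.25). KLF4, a transcription factor, was 0.552, 0.643 and 0.146 CPM in WT and 18.2, 23.5 and 22.4 CPM in OA. DUSP5, a nuclear phosphatase of ERK, was 24.9, 26.5 and 27.0 CPM in WT and 155, 198 and 179 CPM in OA, whereas DUSP6, its cytosolic relative, was 266, 250.2 and 250.2 CPM in WT and 98.3, 97.0 and 101 CPM in OA. The phosphatases thus moved in opposite directions without overlap. JUN rose 2.45-fold and FOS fell by 0.69 on the log2 scale. EGFR, the epidermal growth factor receptor, chosen after its values were seen, was 18.001, 18.9 and 19.97 CPM in WT and 128, 150.005 and 139 CPM in OA. Its ligands AREG and EREG, likewise chosen, rose 2.06-fold and 1.63-fold. Of 13 keratins and biliary markers, 7 rose, among them the uneven KRT7, and 2 fell (median 0.57). KRT19, a keratin of bile duct cells, was 95.1, 89.2 and 92.2 CPM in WT and 613, 547 and 493 CPM in OA. CD24, a surface marker of progenitor cells, was 23.3, 23.9 and 22.8 CPM in WT and 90.9, 77.9 and 77.1 CPM in OA, and SOX4 rose 2.14-fold. SOX9, a biliary transcription factor, fell by 0.33 on the log2 scale. SFN, an epithelial 14-3-3 protein, and CLDN4, a tight junction protein, both chosen after their values were seen, rose 14.2-fold and 6.48-fold.

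The largest rises under the naming rule, apart from those described, were mostly of genes nearly silent in WT. ANKRD13D, an ankyrin repeat protein, had 0 counts over WT against 4.50, 2.998 and 8.43 CPM in OA, a rise of at least 142-fold. KRT37, a hair keratin, measured 0.115, 0 and 0 CPM in WT and 9.71, 9.19 and 9.98 CPM in OA. All 5 WT counts of KRT37 came from replicate 1, and the fitted log2 fold change was 7.49 with that library and 10.76 without it. ARC, an immediate early gene of neurons, was 0.138, 0.237 and 0.183 CPM in WT and 10.4, 13.97 and 14.5 CPM in OA. NDRG4 was 0.898, 0.237 and 0.475 CPM in WT and 31.1, 33.3 and 28.3 CPM in OA, a log2 fold change of 5.75, or 6.44 without WT replicate 1. ZNF165, a zinc finger protein of the testis, rose from 3.57, 3.93 and 4.39 to 108, 128 and 124 CPM (log2 fold change 4.93, SE 0.115, adjusted p = 4.93e-12). The naming rule itself required that the groups not overlap. It also ranked genes by fold change and set a minimum level only for the higher group. Low WT levels among the largest rises are therefore favoured by the rule. GEM, a small GTPase induced by mitogens, was 0, 0.440 and 0.293 CPM in WT and 5.13, 10.3 and 13.9 CPM in OA, a log2 fold change of 5.42 that was 4.71 without WT replicate 1 and 6.27 without WT replicate 2. The others were ALPK3, ALOXE3, THSD4 and CEP97, with log2 fold changes of 5.24, 4.53, 4.45 and 4.43.

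The largest falls, apart from HAL, G6PC1, F7, NR1H4 and HP, included several genes of liver metabolism. VASN, a membrane protein that binds TGF-beta, was 36.6, 43.4 and 72.3 CPM in WT and 0.316, 0.0988 and 0.238 CPM in OA. Its log2 fold change was -8.12, and -7.45 without OA replicate 2, the deepest OA library. ANGPTL8, a feeding-induced regulator of lipoprotein lipase, was 59.5, 47.1 and 55.0 CPM in WT and 4.19, 2.67 and 2.73 CPM in OA. ADH4, an alcohol dehydrogenase, was 93.2, 89.9 and 89.8 CPM in WT and 6.48, 6.33 and 4.04 CPM in OA. DEPP1, a target of FOXO factors, fell from 450.01, 461 and 437 to 33.8, 40.1 and 45.5 CPM. In these 3 genes the groups were far apart, but the naming rule picked large falls and required that the groups not overlap. SLC25A47, a mitochondrial carrier of the liver, and SLC22A9, an organic anion transporter, fell by 3.52 and 3.95 on the log2 scale, and ADCY1 and ATP2B2 by 3.29 and 4.16. PTP4A3 and MMP11 had log2 fold changes of -4.65 and -4.43, or -5.93 and -5.28 without OA replicate 2.

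Most genes of the cell cycle rose. Of 33 genes of DNA replication, 27 rose, 15 of them at least 2-fold, and 0 fell (median 0.95). CDC6 and CDT1, which license replication origins, were 26.2, 24.3 and 26.5 and 17.5, 15.7 and 15.5 CPM in WT and 90.3, 92.7 and 92.2 and 61.8, 64.7 and 58.1 CPM in OA. TK1, the S-phase thymidine kinase, was 5.23, 5.96 and 4.79 CPM in WT and 25.0, 29.4 and 30.0 CPM in OA (log2 fold change 2.40, SE 0.114). Of 30 mitosis genes, 25 rose and 1 fell (median 0.73). MKI67, the proliferation antigen, was 72.3, 67.8 and 64.5 CPM in WT and 183, 187 and 179 CPM in OA, and KIF20A, a kinesin of cytokinesis, rose 2.52-fold. BIRC5 and CCNB2 were not called, with log2 fold changes of 0.03 and -0.04, and HMMR fell by 0.55 on the log2 scale. Replication-dependent histone genes rose in 21 and fell in 0 of 23 cases (median 1.49). H4C8 was 11.2, 10.1 and 10.6 CPM in WT and 43.2, 47.6 and 45.5 CPM in OA. Single histone genes are uncertain because their sequences are so alike. In G1, 12 of 18 genes rose, among them the uneven CCND2, and 3 fell. CDKN2B and CDKN1A, inhibitors of cyclin-dependent kinases, rose 3.85-fold and 2.10-fold, and CCND3, a D-type cyclin, 2.54-fold.

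The promoters of mitosis genes are known for the CHR element TTTGAA, which was searched on both strands. It was in 16 of 25 mitosis promoters (64%), in 1 of 28 DNA replication promoters and in 15.4% of all promoters. The CCAAT box was in 88%, 60.7% and 35.7% of them, and in 90.5% of histone promoters. The 100 bases before the start of MKI67 (minus strand, chr10:128126424-128126523) and PLK1 (plus strand, chr16:23678789-23678888) are given from RefSeq (GRCh38.p14) as examples, with the element in capitals.
MKI67: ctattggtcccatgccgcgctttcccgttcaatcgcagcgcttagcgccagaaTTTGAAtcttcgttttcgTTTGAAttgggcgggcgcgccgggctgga
PLK1: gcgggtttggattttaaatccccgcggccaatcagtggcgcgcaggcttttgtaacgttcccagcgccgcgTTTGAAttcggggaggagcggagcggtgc

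Most ribosomal protein genes fell, nearly all by under 2-fold. Of 32 cytosolic ribosomal proteins, 26 fell, 1 of them by 2-fold or more, and 0 rose (median -0.46). RPL37 was 189, 162 and 167 CPM in WT and 97.4, 101 and 87.2 CPM in OA, and RPS6 fell by 0.68 on the log2 scale. These genes have many near-identical pseudogenes, so their counts are uncertain. Of 31 ribosome biogenesis genes, 15 fell and 7 rose, none by 2-fold. Of 38 nuclear-encoded respiratory chain subunits, 16 fell and 4 rose (median -0.17), with NDUFS1, of complex I, lower by 0.60 and UQCRC1, of complex III, by 0.51 on the log2 scale. Of 13 mitochondrially encoded transcripts, 1 rose and 1 fell, and a fit of the 6 samples alone called 2 higher and 3 lower. MT-CO1, of complex IV, was 14499, 14192 and 12879.7 CPM in WT and 16173, 16053 and 15777 CPM in OA.

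Levels of some of these genes in the DNL group are given for comparison. In the same fit, 62.8% of tested genes differed between OA and DNL, so a single difference is common. PLIN2 was 713, 691 and 732 CPM in DNL, lower than in OA by 2.23 on the log2 scale (adjusted p = 2.39e-13). HSPA5 was 809.9, 835 and 795 CPM in DNL, against 4422, 4894 and 4852 CPM in OA (log2 fold change 2.54, OA over DNL). TXNRD1 and GCLC were also higher in OA than in DNL, by 2.65 and 2.95, and CREB3L3 by 3.75. OA values of ALB and APOB lay below those of DNL, with log2 fold changes of -2.15 and -2.48. NR1H4 and F7 showed the same direction, at -3.68 and -3.37. SCD was 12199.5, 12245 and 12542 CPM in DNL and FASN 6466, 6666 and 6615 CPM, above their OA values (-3.05 and -2.18, OA over DNL). LPIN1 and ASNS were close in OA and DNL, with log2 fold changes of 0.02 (SE 0.0507) and -0.05 (SE 0.0421) that did not pass the test. DNL cells stood in DMEM for 1 week and OA cells for 6 hours, so medium is shared but its duration and every addition are not.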

How the data were processed

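Stranded libraries depleted of ribosomal RNA were made from total RNA, per the labels' protocols. The authors deposited 1 table of estimated counts by gene. Kallisto 0.48.0, FastQC 0.11.9 and GRCh38 are named by the submitters' processing notes. For the annotation release and strand setting, nothing is stated (not given in the sources used here), so reads of overlapping genes and near-identical copies may be split between them. Gene coordinates are from GENCODE release 29.

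Titles gave the groups and the treatment characteristic gave the media, because the shared treatment protocol carries the DNL recipe on every sample. Estimated counts were rounded, filtered with filterByExpr, scaled by TMM and tested with edgeR 4.0.16 in R 4.3.3 (robust estimateDisp, robust glmQLFit, glmQLFTest). All 9 samples entered 1 model with a group factor and Benjamini-Hochberg adjustment over 13636 genes. The procedure was tested on simulated data. The coefficient of variation between replicates was 10.6%. SE was derived from the F statistic. A count of 0 allows up to 3 counts, and bounds and intervals cover counting error only. DESeq2 1.42.0 and limma 3.58.1 (voom) served as alternatives, with those named in the closing section. All replicate pairs differed by more than sampling noise (chi-square per degree of freedom 5.29 to 15.8).

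The 55 gene lists and the comparison were chosen with earlier results of these data known, and a list is described by counts and its median, with no test. Named genes were the 15 largest rises and 15 largest falls (called, not uneven, groups not overlapping, mean of the higher group 5 CPM or more), a set of sentinel genes, and up to 4 called members per list and direction with the smallest adjusted p. List members that were not called are named as such, and other genes are marked as chosen after their values were seen. Values of some genes are not reported here.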

Additional observations from a re-analysis of the deposited data

How the results depend on the processing

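The numbers of genes called above and below WT in OA stayed within 1.5 times the reported 4139 and 4049 under every alternative run. DESeq2 gave 4285 and 3854, limma-voom 4262 and 4128, RLE size factors 4299 and 3887, library totals 4604 and 3547, no filter on low counts 4120 and 4108, the 6 samples alone 4183 and 3812, libraries thinned to the shallowest 3704 and 3640, and omission of the uneven genes 4125 and 4060. Leaving out each OA or WT replicate in turn gave 3765 to 4123 higher and 3673 to 4036 lower. Library totals moved the median of all genes by 0.07 (log2). Same-numbered OA and WT libraries had correlations of their deviations of 0.01, 0.05 and 0.01, and differently numbered ones -0.06 to 0.04. Whether same-numbered libraries shared a culture or batch is not in the labels, and these values cannot settle it. With the replicate number as a block, 4077 genes were higher and 4022 lower. Under the block, 2 mitochondrially encoded transcripts were higher and 6 lower. Of 389 named genes, 387 were tested in the thinned libraries, 386 without the uneven genes and 389 under each other alternative. Among those tested, 0 reversed direction, and 0 to 11 lost their call under a single alternative. Depth was lowest in OA replicate 3, and 23.4% of genes under 1 CPM were called.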

Other observations

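Counts for gene groups outside the main pathways are given here without a test, to be read against the 30.4% of all tested genes that were higher and the 29.7% that were lower. Of 19 hypoxia targets outside glycolysis, 11 rose and 6 fell, 7 and 2 of them at least 2-fold (median 0.51). NDRG1, a stress and differentiation gene, was 24.0, 24.0 and 22.4 CPM in WT and 119, 137 and 126 CPM in OA, and ADM, the vasodilator adrenomedullin, rose 3.07-fold. EPO, erythropoietin, fell by 2.09, VEGFA, the endothelial growth factor, by 0.71 and P4HA1, a collagen hydroxylase, by 0.63 on the log2 scale. Chemokines and NF-kB feedback genes rose in 7 and fell in 5 of 17 cases. CXCL8, interleukin 8, was 9.76, 9.85 and 10.9 CPM in WT and 47.2, 60.1 and 63.7 CPM in OA, while ICAM1, an adhesion molecule, was 216, 209.9 and 208 CPM in WT and 107, 102 and 93.5 CPM in OA. Targets of p53 rose in 12 and fell in 4 of 23 cases, with PLK2 2.92-fold higher, and 2 fell with library totals.

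In a list of YAP, TAZ and SRF targets, genes fell in 12 and rose in 7 of 28 cases (median -0.11). The list also holds the factors themselves, and YAP1 and TEAD1 were among the rises. ANKRD1 rose from 46.3, 43.6 and 43.4 to 115, 171 and 166 CPM and AJUBA fell by 0.87 on the log2 scale. Wnt feedback targets rose in 8 and fell in 4 of 18 cases, with DKK1, a Wnt inhibitor, 2.79-fold higher and NOTUM, another, lower by 0.72 on the log2 scale. Circadian clock genes rose in 10 and fell in 5 of 19 cases. CRY1, a repressor of the clock, rose 1.77-fold, and HLF, an output factor, fell from 594, 624 and 595 to 210.3, 175 and 164 CPM. The falls of clock genes numbered 3 with library totals, in thinned libraries and without OA replicate 2, WT replicate 1 or WT replicate 2. Interferon-stimulated genes rose in 7 and fell in 3 of 19 cases, where OAS1 rose from 2.83, 2.54 and 2.82 to 13.98, 15.5 and 15.1 CPM. With library totals, and without OA replicate 2, OA replicate 3 or WT replicate 2, 1 of them fell. Iron genes rose in 5 and fell in 8 of 17 cases, with TFRC, the transferrin receptor, 1.48-fold higher and TFR2, its hepatic homologue, lower by 1.94 on the log2 scale. Of 7 aquaporin and glycerol genes, 2 rose and 4 fell. AQP3, a glycerol channel, was 232, 218 and 217 CPM in WT, 427, 493 and 453 CPM in OA and 1.35, 0.399 and 0.665 CPM in DNL. AQP11 was the other rise, but it was no longer called when OA replicate 2, WT replicate 1 or WT replicate 2 was omitted, or in thinned libraries. Collagens and matrix glycoproteins rose in 10 and fell in 11 of 26 cases, but 5 rose once the uneven transcripts were left out, and 6 without WT replicate 2. VCAN, versican, was among the even members that rose (2.17-fold), and COL27A1 fell by 0.90 on the log2 scale.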
